A study of Mus musculus with 4 samples.

Results

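The cells described here are hippocampal interneurons that co-express the peptide genes Sst and Npy, called Npy-high Sst cells in what follows. They were chosen by their own RNA counts, in unique molecular identifiers (UMIs), each of which stands for 1 captured RNA molecule. A cell had 200 to 6000 detected genes, under 30% mitochondrial UMIs, at least 2 UMIs of Gad1 plus Gad2, 0 UMIs of Mog, at least 3000 Sst UMIs per 1000000 UMIs of the cell (counts scaled in this way are called CPM), under 2 UMIs of Th, under 2 of Chodl, under 3 of Nos1, and at least 3 of Npy. The rule selected 664 cells, 355 from Grin1-null and 309 from WT hippocampus, out of 14820 hippocampal cell barcodes (4.48%) and 26987 barcodes in the series. The remaining 742 cells that met every condition except the last are called Npy-low Sst cells, so Npy-high cells made up 47.2% of 1406 gated hippocampal Sst cells.

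Somatostatin interneurons of the hippocampus place most of their axon on the dendrites of pyramidal cells, where they limit excitatory input. They include O-LM cells, which send their axon to the outermost dendritic layer, bistratified cells, which share the layers of the Schaffer collaterals, and GABAergic cells that project out of the hippocampus, and Npy and the calcium buffer calbindin (Calb1) are known from several of these types. Neuropeptide Y is released during intense firing and, through presynaptic Y2 receptors (Npy2r), lowers transmitter release.

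The study sorted TdTomato-positive cells from hippocampus and frontal cortex of juvenile mice, postnatal day 18 to 20, and counted their RNA with the 10x Genomics 3' assay. In all groups Nkx2-1-Cre, which acts in progenitors of the medial ganglionic eminence (MGE), switched on the Ai14 TdTomato reporter. WT mice carried Grin1 wt/wt and Grin1-null mice were Grin1 fl/fl, so that the deletion of Grin1, the obligatory subunit of NMDA receptors, was directed at MGE-derived cells in general and not at Npy-high cells alone. Littermates of both sexes were used and animals were pooled within a replicate, so a library is not an animal, and p-values measure the spread between libraries. Slices and cells were kept in tetrodotoxin, the NMDA receptor blocker APV and actinomycin D during preparation.

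The hippocampal cells came from 5 libraries, Grin1-null replicates 1 and 2 and WT replicates 1 to 3, and hippocampal values are given in that order. Version 2 chemistry was used for replicate 1 of each group, and version 3 for all other replicates. Total UMIs per library were 3856745 and 47338167 in Grin1-null and 10555408, 8782181 and 20639002 in WT. The libraries held 28, 327, 64, 161 and 84 Npy-high cells, with median UMIs of 13592, 14575, 5197, 2688 and 12173.5 per cell. Grin1-null replicate 2 thus gave nearly as many Npy-high cells as the rest combined, and WT replicate 2 stood apart through its low depth. Pairs of hippocampal libraries shared between 0 and 7 cell barcodes, and 0 barcodes were shared between Npy-high cells of any pair. Scrublet marked 3 Npy-high cells as doublets, and they were kept.

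The name of the cells was checked against its marker genes. Sst and Npy, which the rule used, and Calb1, a marker of these cells, are given as a description with no test. Npy (ENSMUSG00000029819.6, chromosome 6, 49822710 to 49829507, plus strand, GRCm38) was summed to 6095.9, 5423.5, 3975.6, 5574.7 and 3789.9 CPM in Npy-high cells. In Npy-low cells of the same libraries it stood at 38.7, 35.6, 40.8, 160.4 and 27.6 CPM, with the shallow WT replicate 2 the highest. Sst (ENSMUSG00000004366.3, chromosome 16, 23889573 to 23890958, minus strand) reached 19745.6, 18969.0, 13618.8, 18492.7 and 20610.6 CPM in Npy-high cells and 10718.2, 17910.2, 11139.8, 12239.2 and 15143.5 CPM in Npy-low cells. Sst was the higher of the pair in Npy-high cells of every hippocampal library, by a wide margin in Grin1-null replicate 1 and by little in Grin1-null replicate 2. Calb1 (chromosome 4, 15881264 to 15908064, plus strand) stood at 421.2, 806.2, 594.7, 457.1 and 381.9 CPM in Npy-high cells and at 480.9, 492.7, 311.9, 357.4 and 270.5 CPM in Npy-low cells. It was higher in Npy-high cells of all libraries except Grin1-null replicate 1.

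Detection per cell was set beside that in a cell type outside the interneurons, as a measure of free RNA. At least 1 Calb1 UMI was found in 62.5% of Npy-high cells, 55.9% of Npy-low cells and 1.62% of 4639 hippocampal oligodendrocytes (at least 2 Mog UMIs and 0 of Gad1 plus Gad2), at median depths of 10770.5, 7439.0 and 5697.0 UMIs. After each cell was thinned to 1000 UMIs, which left out 11, 23 and 166 cells, the shares were 37.2%, 26.8% and 0.179%. Detection shares here and below pool the cells of all libraries, and thinning does not even out their make-up. Grin1-null replicate 2 gave 327 of the 664 Npy-high and 211 of the 742 Npy-low cells. Npy was detected in 30.9% of Npy-low cells and 9.25% of oligodendrocytes unthinned, and in 81.3% of Npy-high cells, 8.07% of Npy-low cells and 1.65% of oligodendrocytes after thinning. The rule kept Npy-low cells under 3 Npy UMIs, so the gap in Npy between the classes follows from it and is no finding. How many of the Npy UMIs in Npy-low cells were free RNA was not tested. The rule itself kept the gate genes of other classes low, so their values are a description and no check. In Npy-high cells Th was at 3.05 ± 3.30 CPM, Chodl at 0.330 ± 0.737 CPM and Nos1 at 14.3 ± 3.72 CPM (SD, n = 5). Mog was 0 by the rule.

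Npy formed a broad gradient with no gap at the threshold. Of the gated Sst cells, 513 had 0 Npy UMIs, 158 had 1, 71 had 2, 56 had 3, 45 had 4, and 262 had at least 30. The cells with 2 UMIs, just outside, had a median of 226.2 Npy CPM and a median depth of 8840.0 UMIs. Those with 3 UMIs, just inside, had 490.7 Npy CPM at 6117.0 UMIs. For Sst, the lowest Npy-high cell lay at 3037.7 CPM and the nearest cell under the limit at 2999.2, with 10 cells within 10% above the limit and 8 within 10% under it. The median Npy-high cell held 20 Npy UMIs and the highest 1092.

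**Figure D1:**
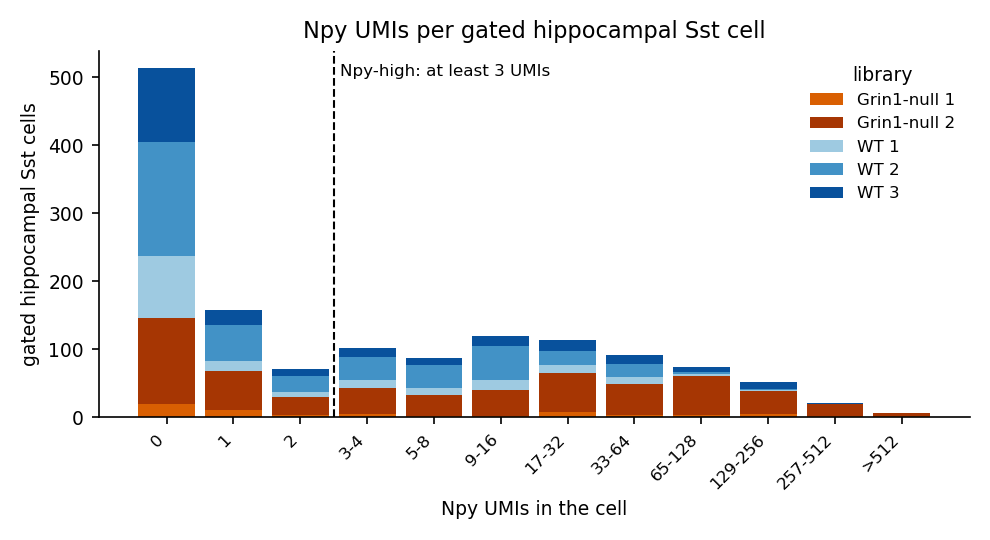
Number of gated hippocampal Sst cells (y axis) by Npy UMIs in the cell (x axis, bins that widen to the right), stacked by library. The bin of 0 UMIs holds 513 cells, and the cells to the right of the dashed line, with at least 3 UMIs, are the 664 Npy-high cells; bins above 256 UMIs hold cells of Grin1-null libraries and 1 WT cell.

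The Npy-high cells were also described by their level of Npy, with no test. Cells were divided at 1000 and 5000 Npy CPM into 151, 271 and 242 cells, with median depths of 13358.0, 8631.0 and 9285.0 UMIs. Cort, which encodes cortistatin, a peptide close to somatostatin, averaged 544.8 ± 334.3, 706.7 ± 677.6 and 1759.9 ± 722.7 CPM over the low, middle and high cells (SD, n = 5 libraries). Crhbp, which encodes a secreted protein that binds corticotropin-releasing hormone, averaged 211.7 ± 202.7, 482.7 ± 259.6 and 966.4 ± 501.6 CPM. Npas1, a transcription factor of MGE and CGE interneurons, averaged 125.1 ± 109.6, 105.5 ± 57.5 and 44.8 ± 34.8 CPM. Cort and Crhbp were thus most abundant where Npy was most abundant and Npas1 least abundant there, with spreads that overlapped between neighbouring bins. Reelin (Reln), an extracellular glycoprotein of many O-LM cells, was near 294.3 ± 179.1, 278.1 ± 160.0 and 261.9 ± 153.0 CPM with little change from bin to bin. Cbln4 was at 158.2 ± 83.2, 103.5 ± 64.3 and 96.1 ± 63.1 CPM and Cnr1 at 127.5 ± 101.6, 142.8 ± 31.1 and 152.1 ± 28.3 CPM, differences that lie inside their spreads and do not follow the direction between Npy-high and Npy-low cells. Calb1 rose with Npy, at 299.9 ± 173.6, 521.1 ± 132.0 and 695.7 ± 281.7 CPM, with spreads that overlapped between neighbouring bins. Pnoc fell slightly, at 231.3 ± 157.1, 214.1 ± 106.8 and 194.2 ± 106.5 CPM, a change inside its spread. Tac1 did not follow Npy from bin to bin, at 387.6 ± 339.0, 161.4 ± 83.1 and 333.9 ± 208.0 CPM. Nor did Pdyn, at averages of 17.0, 9.74 and 12.1 CPM, or Npy2r, at 14.8, 19.4 and 16.3 CPM. The top bin took 42.9%, 37.3%, 31.2%, 42.2% and 23.8% of the Npy-high cells of the 5 libraries, and the bottom bin 25%, 28.7%, 21.9%, 5.59% and 32.1%. WT replicate 2, whose shallow cells reach 3 Npy UMIs only at a high Npy level, had few cells in the bottom bin.

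The Npy-high cells were also mixed in Calb1, Reln and Pvalb. At least 1 UMI of Calb1 without Reln or Pvalb was found in 170 cells (25.6%), of Calb1 with Reln in 167 (25.2%), of Reln alone in 106 (16.0%) and of all 3 in 43 (6.48%). No UMI of any of the 3 was found in 62 cells (9.34%), whose median depth was 2908.5 UMIs against 15169.0 in the cells with all 3. Pvalb, the calcium buffer parvalbumin of basket and bistratified cells, had a UMI in 23.9% of Npy-high cells, against 15.2% of Npy-low cells and 2.48% of oligodendrocytes, and after thinning in 6.28%, 4.31% and 0.380%.

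The share of Sst cells that were Npy-high was compared between genotypes, since loss of NMDA receptors was the variable of the study. In Grin1-null hippocampus 46.7% (95% Wilson interval 34.6 to 59.1) and 60.8% (56.6 to 64.8) of gated Sst cells were Npy-high. In WT hippocampus the shares were 36.0% (29.3 to 43.2), 39.8% (35.1 to 44.6) and 37.3% (31.3 to 43.8), where intervals cover counting error only. Both Grin1-null libraries lay above the 3 WT libraries. The means were 53.7 ± 9.98% (SD, n = 2) and 37.7 ± 1.92% (SD, n = 3), a difference of 16.0 percentage points, and the two-sided exact permutation test gave p = 0.1, the smallest value that 3 against 2 libraries allow. The difference was 8.99 points without Grin1-null replicate 2.

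The Grin1-null libraries had the higher median depths, although among WT libraries the shallowest, replicate 2, had the highest share, and the share was therefore also taken with limits that allow for depth. With the limit set at 500 Npy CPM in place of 3 UMIs, the shares were 41.7% and 50.9% in Grin1-null and 34.8%, 51.6% and 33.3% in WT. The groups then overlapped, with WT replicate 2 the highest of all. The difference was 6.37 points (exact permutation p = 0.6). With every cell thinned to 1000 UMIs and at least 1 Npy UMI required, the shares were 36.7% and 48.3% against 34.8%, 47.9% and 29.7%. These groups overlapped as well, and the difference was 5.01 points (exact permutation p = 0.5). The parts of depth and genotype in the full-depth difference cannot be told apart here.

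In WT cortex the same rule gave 1247 Npy-high cells and shares of 48.2%, 56.8% and 52.8% in replicates 1 to 3. All 3 cortical shares were higher than the 3 hippocampal WT shares. The cortical mean was 52.6 ± 4.31% (SD, n = 3), and hippocampus minus cortex was -14.9 points, with an exact two-sided permutation p = 0.1, the smallest value for 3 against 3. That test took the libraries as unpaired. Same-numbered libraries of both regions belong to the same replicate, and the labels do not give the animals of each library. Thinned to 1000 UMIs, the cortical shares were 46.7%, 57.1% and 48.7%, and the highest hippocampal WT library overlapped them. Within replicates of the same number, hippocampus was the lower of the pair in all 3, at 34.8%, 47.9% and 29.7%. With the limit at 500 Npy CPM it was also the lower in all 3, at 34.8%, 51.6% and 33.3% against 42.6%, 59.8% and 48.9%.

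**Figure D2:**
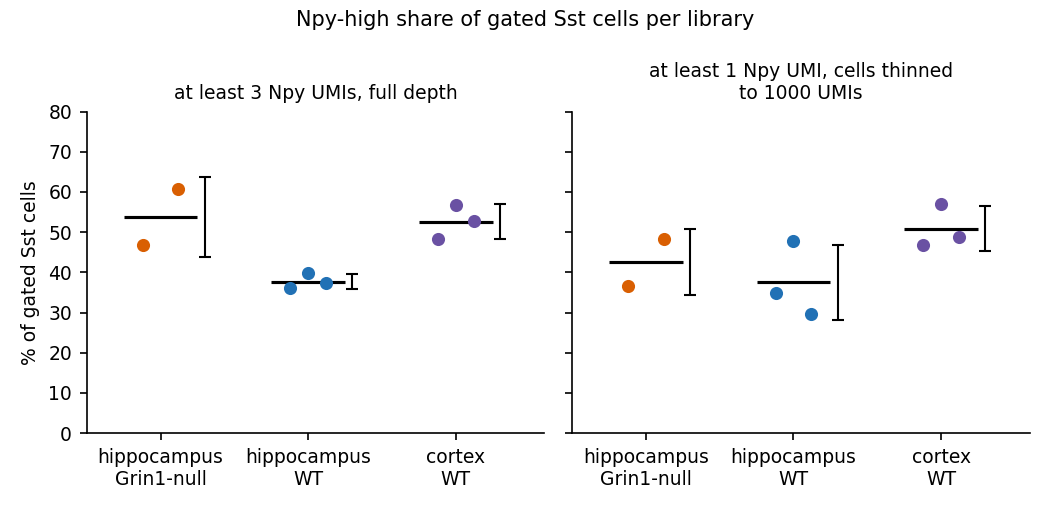
Npy-high share of gated Sst cells in percent (y axis) in each library (points) of Grin1-null hippocampus, WT hippocampus and WT cortex, with group means (lines) and SD (bars), at full depth (left) and after thinning to 1000 UMIs per cell (right). At full depth the 2 Grin1-null libraries lie above the 3 WT hippocampal libraries, and after thinning these groups overlap.

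Npy-high cells were then compared with Npy-low cells of the same libraries to ask which genes other than those of the rule set them apart. They had more RNA of the single receptors Oxtr, Grpr and Npy2r, of the peptide genes Cort, Nppc and Tac1, of the AMPA receptor subunits Gria1, Gria3 and Gria4 and of the synaptic organizers Cbln4 and Pcdh8. They had less RNA of the cannabinoid receptor Cnr1, of the peptide genes Pnoc, Tac2 and Crh, and of Npas1, which is known from O-LM cells. Of 8852 genes tested with the library as a block, 193 (2.18%) passed the quasi-likelihood test of edgeR at a Benjamini-Hochberg adjusted p under 0.01 with a log2 change of at least 0.14, 114 (1.29%) higher and 79 (0.892%) lower in Npy-high cells, and 1126 (12.7%) had an unadjusted p under 0.05. Gate genes and Calb1 were left out of these counts. The counts of passing list members that follow are to be set against this 2.18%, and the lists were chosen with earlier results of these data known. In 146 of the 193 the direction was the same in all 5 libraries, against 1033 (11.7%) of all genes tested, of which 380 (4.29%) were higher and 653 (7.38%) lower in every library.

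Oxtr, Npy2r and Grpr encode receptors of peptides, and Oxtr and Grpr were named for the size of their change. Oxtr, the oxytocin receptor (chromosome 6, 112473683 to 112489943, minus strand), stood at 16.2, 21.8, 36.3, 17.4 and 13.0 CPM in Npy-high cells and at 7.25, 4.21, 10.5, 3.18 and 4.61 CPM in Npy-low cells. Every Npy-high value was above all Npy-low values. The log2 change was 2.02 (SE 0.27, adjusted p = 1.22e-05 by edgeR's quasi-likelihood test, Benjamini-Hochberg adjusted, higher in 5 of 5 libraries). Npy2r, the Y2 receptor of neuropeptide Y itself (chromosome 3, 82538383 to 82548084, minus strand), stood at 10.8, 18.5, 33.5, 13.6 and 14.0 CPM against 4.83, 2.91, 1.32, 3.18 and 0 CPM. Its levels were low in both classes and did not overlap, with 127 UMIs in all Npy-high cells and 14 in all Npy-low cells. Its log2 change was 3.01 (SE 0.38, adjusted p = 6.97e-06 by edgeR with Benjamini-Hochberg adjustment). At least 1 Npy2r UMI was seen in 9.94% of Npy-high cells, 1.48% of Npy-low cells and 0 of 4639 oligodendrocytes, and in 1.53%, 0.139% and 0% after thinning. Grpr, the receptor of gastrin-releasing peptide (chromosome X, 163513904 to 163549677, minus strand), stood at 40.5, 15.9, 16.8, 15.5 and 18.9 CPM against 4.83, 7.12, 2.63, 6.35 and 5.27 CPM. Again the classes did not overlap, and Grin1-null replicate 1, with 28 Npy-high cells, was far above the other Npy-high libraries (log2 change 1.63, SE 0.28, adjusted p = 0.000371 by edgeR with Benjamini-Hochberg adjustment). Of the 125 Grpr UMIs in Npy-high cells, 7 lay in 1 cell of that library. Of 18 peptide receptors listed, which do not include Oxtr or Grpr, 6 had enough counts for the test and Npy2r alone passed, with a median log2 change of 0.15 against 0.00 over all genes. Adcyap1r1, the PACAP receptor, averaged 88.0 and 84.8 CPM in the classes and did not pass (adjusted p = 0.790 by edgeR). Oxtr and Npy2r had too few counts to be tested without Grin1-null replicate 2, as had Grpr without WT replicate 3.

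Peptide genes themselves moved in both directions. Of 13 peptide precursors that the rule did not use, 10 were tested and 7 passed, with Cort, Tac1, Pdyn and Nppc higher and Pnoc, Tac2 and Crh lower in Npy-high cells (median log2 change 0.20 over the list, 0.00 over all genes; 3 called by DESeq2). Cort (chromosome 4, 149125034 to 149126763, minus strand) stood at 793.7, 896.9, 845.9, 827.1 and 1749.9 CPM in Npy-high cells and at 654.9, 314.0, 734.3, 247.8 and 400.2 CPM in Npy-low cells. All Npy-high values exceeded all Npy-low values, with small gaps in replicate 1 of both genotypes and the widest in WT replicate 3 (log2 change 1.30, SE 0.16, adjusted p = 2.87e-06 by edgeR with Benjamini-Hochberg adjustment). DESeq2 did not call Cort (adjusted p = 0.0784). Nppc, the precursor of C-type natriuretic peptide (chromosome 1, 86666291 to 86670571, minus strand), stood at 99.9, 185.0, 120.1, 186.0 and 203.4 CPM against 84.6, 100, 47.4, 79.4 and 93.5 CPM. It was higher in Npy-high cells of every library, and Grin1-null replicate 1 had the smallest gap (log2 change 1.01, SE 0.10, adjusted p = 8.68e-08 by edgeR). Tac1, the precursor of substance P, was higher in 5 of 5 libraries with a log2 change of 0.66, which was 0.31 with an adjusted p of 0.283 by edgeR without Grin1-null replicate 2, and DESeq2 did not call it (adjusted p = 0.838). Pdyn, the precursor of dynorphins, had a log2 change of 1.78, but 58 of its 159 UMIs in Npy-high cells (36.5%) came from 1 cell of Grin1-null replicate 2, and it was higher in Npy-high cells of 2 libraries.

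Pnoc, the precursor of nociceptin, stood at 240.3, 329.6, 173.1, 42.6 and 285.2 CPM in Npy-high cells and at 430.2, 592.4, 194.8, 65.1 and 443.6 CPM in Npy-low cells. It was lower in Npy-high cells of each library, although levels in the libraries differed so much that the classes overlapped (log2 change -0.67, SE 0.08, adjusted p = 2.87e-06 by edgeR with Benjamini-Hochberg adjustment). Crh, corticotropin-releasing hormone (chromosome 3, 19693401 to 19695396, minus strand), stood at 10.8, 56.9, 2.79, 32.9 and 27.9 CPM against 26.6, 93.6, 48.7, 54.0 and 72.4 CPM. It too was lower in Npy-high cells of each library, most of all in WT replicate 1 (log2 change -0.92, SE 0.15, adjusted p = 0.000254 by edgeR). Its binding protein went the other way. Crhbp (chromosome 13, 95431371 to 95444924, minus strand) stood at 515.6, 812.8, 128.4, 679.9 and 747.8 CPM against 224.8, 347.4, 121.1, 224.0 and 192.8 CPM. WT replicate 1 had the lowest Npy-high value and nearly equal classes, while the other 4 libraries were well separated (log2 change 1.42, SE 0.11, adjusted p = 1.51e-09 by edgeR). Tac2, the precursor of neurokinin B, had the largest fall of the peptides, at 2.70, 3.50, 11.2, 0 and 22.9 CPM against 4.83, 40.8, 7.90, 22.2 and 42.8 CPM. It was lower in all libraries except WT replicate 1 (log2 change -2.28, SE 0.34, adjusted p = 6.71e-05 by edgeR), and without Grin1-null replicate 2 the log2 change was -1.03 with an adjusted p of 0.161. Among 14 granins and enzymes of peptide processing, 12 were tested and Vgf, a granin-like secretory protein, passed with a log2 change of 0.64, while 11 of the 12 had a log2 change above 0 (median 0.06).

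Of 10 genes known from O-LM cells, 10 were tested and 5 passed, against 2.18% of all genes. Those 5 were all lower in Npy-high cells: Pnoc, Npas1, Chrna2, Igfbp5 and Kcnd3 (median log2 change of the list -0.35). A log2 change above 0 was found in 4 of the 10, the highest at 0.33. DESeq2 called 2 of the 10, and Igfbp5 and Kcnd3 lost their call without Grin1-null replicate 2 (adjusted p of 0.182 and 0.0699 by edgeR), where the log2 change of Kcnd3 was -0.52 against -0.51 with all libraries. Chrna2, the nicotinic receptor subunit used to mark O-LM cells (chromosome 14, 66135039 to 66152948, plus strand), stood at 5.40, 5.97, 0, 0 and 4.99 CPM in Npy-high cells and at 2.42, 21.7, 7.90, 15.9 and 4.61 CPM in Npy-low cells. It was lower in Npy-high cells of 3 libraries, higher in Grin1-null replicate 1 and slightly higher in WT replicate 3 (log2 change -1.66, SE 0.37, adjusted p = 0.00609 by edgeR). DESeq2 did not call it (adjusted p = 0.798), and it had too few counts to be tested without Grin1-null replicate 2, WT replicate 2 or WT replicate 3. Npas1 (chromosome 7, 16455721 to 16477728, minus strand) stood at 59.4, 104.6, 53.0, 52.3 and 201.4 CPM against 94.3, 255.4, 180.3, 127.1 and 304.7 CPM. It was lower in Npy-high cells of each library (log2 change -1.04, SE 0.11, adjusted p = 3.07e-07 by edgeR with Benjamini-Hochberg adjustment). Of 8 other genes listed for projecting Sst cells of the hippocampus, 8 were tested, and Cort and Zbtb20 passed as higher and Serpine2 and Mgat4c as lower (median log2 change -0.28; 3 called by DESeq2). Of 8 tested genes of bistratified and Pvalb-type cells, Pvalb, Tac1 and Rgs4 passed as higher (median log2 change 0.15, lowest -0.94). All 8 had an unadjusted p under 0.05, of which 5 were higher, DESeq2 called 0, and the 3 lost their call without Grin1-null replicate 2 (adjusted p of 0.0373 for Pvalb, 0.283 for Tac1 and 0.0164 for Rgs4 by edgeR). Pvalb (chromosome 15, 78191114 to 78206400, minus strand) stood at 72.9, 145.4, 0, 112.3 and 71.8 CPM against 19.3, 60.9, 26.3, 63.5 and 36.2 CPM, so 4 libraries were higher in Npy-high cells and WT replicate 1 had no UMI there (log2 change 1.09, SE 0.17, adjusted p = 0.000114 by edgeR).

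Cnr1, the CB1 cannabinoid receptor that presynaptically lowers transmitter release (chromosome 4, 33924593 to 33948831, plus strand), was among the clearest falls. It stood at 102.6, 164.6, 139.6, 125.9 and 210.4 CPM in Npy-high cells and at 200.6, 367.8, 331.6, 243.0 and 370.5 CPM in Npy-low cells. Each library was lower in Npy-high cells, to near 50% of the Npy-low level (log2 change -1.01, SE 0.08, adjusted p = 1.51e-09 by edgeR with Benjamini-Hochberg adjustment). Cnr1 also stands in a list of 6 markers of interneurons of the caudal ganglionic eminence (CGE), of which 2 were tested, and Calb2, the other, did not pass (log2 change 0.06). The sum over those 6 genes was 121.5, 295.0, 192.6, 242.1 and 291.1 CPM in Npy-high and 263.4, 438.7, 435.6, 336.8 and 511.4 CPM in Npy-low cells, most of it Cnr1, and Vip had 0 UMIs in Npy-low cells.

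Of 17 ionotropic receptor subunits and auxiliary proteins tested, 5 passed, against 2.18% of all genes, and all 5 were higher in Npy-high cells. They were the AMPA receptor subunits Gria1, Gria3 and Gria4, the kainate and NMDA receptor auxiliary protein Neto1, and the AMPA receptor auxiliary protein Cacng3. The median log2 change was 0.24, 14 of the 17 lay above 0, the lowest was -0.32, and DESeq2 called 3. Gria1 stood at 1036.7, 875.2, 991.1, 898.8 and 844.5 CPM in Npy-high cells and at 882.1, 641.7, 762.0, 632.2 and 745.0 CPM in Npy-low cells. It was higher in Npy-high cells of 5 of 5 libraries by a modest margin (log2 change 0.39, SE 0.06, adjusted p = 5.47e-05 by edgeR). Cnih3, a further AMPA receptor auxiliary protein, and Syndig1, a membrane protein that associates with AMPA receptors, had log2 changes of 1.45 and 1.71. Both were among the 10 largest rises of genes with at least 20 CPM in Npy-high cells and the same direction in every library. Syndig1 stood at 43.2, 30.3, 36.3, 19.4 and 17 CPM against 14.5, 10.0, 1.32, 7.94 and 7.24 CPM, with no overlap and the widest ratio in WT replicate 1. Of 8 metabotropic receptors tested, Grm3 passed as lower, at 0, 2.68, 0, 7.75 and 3.99 CPM against 14.5, 15.2, 6.58, 19.1 and 8.56 CPM (log2 change -2.13, SE 0.37, adjusted p = 0.000352 by edgeR). It was lower in Npy-high cells of every library, at low levels throughout, DESeq2 did not call it (adjusted p = 0.0660), and too few counts were left to test it without Grin1-null replicate 2 or WT replicate 3.

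Adhesion proteins, transcription factors and channels moved in both directions, and their counts stand against 2.18% of all genes that passed. Of 28 synaptic organizers and adhesion genes tested, Nlgn1, Cbln4, Pcdh7, Pcdh8 and Cntn4 passed as higher and Lrrtm1 as lower (median log2 change 0.09; 3 called by DESeq2). Cbln4, a secreted synaptic organizer of dendrite-targeting Sst cells (chromosome 2, 172036233 to 172043466, minus strand), stood at 140.4, 127.5, 150.8, 65.9 and 53.8 CPM in Npy-high cells and at 43.5, 57.6, 48.7, 27.0 and 14.5 CPM in Npy-low cells. It was higher in Npy-high cells of each library (log2 change 1.40, SE 0.12, adjusted p = 8.69e-09 by edgeR with Benjamini-Hochberg adjustment). Pcdh8, an activity-regulated protocadherin, stood at 56.7, 116.6, 120.1, 94.9 and 81.8 CPM against 33.8, 29.5, 59.2, 42.9 and 37.5 CPM. It was higher in each library, and Grin1-null replicate 2 had the widest gap (log2 change 1.5, SE 0.14, adjusted p = 3.57e-08 by edgeR). Of 20 fate transcription factors tested, Maf, Zbtb20 and Nfix passed as higher and Satb1, Npas1 and Npas3 as lower (median log2 change 0.14; 4 called by DESeq2). Satb1, needed for the maturation of Sst interneurons, stood at 307.8, 394.9, 435.5, 441.6 and 547.4 CPM against 473.7, 488.5, 567.2, 571.8 and 706.2 CPM. It was lower in every library, most of all in Grin1-null replicate 1 (log2 change -0.35, SE 0.06, adjusted p = 0.000471 by edgeR), and Maf, an MGE regulator, rose by 0.62 on the log2 scale.

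Of 21 potassium channel genes tested, Kcna1 and Kcnip1 passed as higher and Kcnd3 as lower (median log2 change -0.06). DESeq2 called 0 of the 21, and of 5 fits without a library Kcna1 lost its call in 3 and Kcnip1 and Kcnd3 in 2 each. Of 15 calcium-binding proteins other than Calb1, Pvalb passed as higher and Necab2, Ncald, Vsnl1 and S100a10 as lower (median log2 change -0.01). DESeq2 called 0 of the 15, and S100a10 lost its call in 4 of the 5 fits, Necab2 and Ncald in 3, Vsnl1 in 2 and Pvalb in 1. Other large falls were Pld5, a phospholipase D family member, Parm1, the cation channel Trpc5, the matrix protein Matn2, the protease inhibitor Serpine2, the myosin gene Myh8 and Ypel1, with log2 changes from -1.92 for Pld5 to -0.92 for Ypel1. Pld5 (chromosome 1, 175962306 to 176275312, minus strand) stood at 13.5, 15.7, 5.58, 13.6 and 18.9 CPM in Npy-high cells and at 41.1, 66.0, 52.6, 39.7 and 56.6 CPM in Npy-low cells. No Npy-high value came near the Npy-low range (SE 0.17, adjusted p = 8.08e-09 by edgeR with Benjamini-Hochberg adjustment). The other large rises were Tmtc4, the transcriptional cofactor Zfpm2 and the transcription factor Ets1, with log2 changes of 1.54, 1.46 and 1.44.

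**Figure D3:**
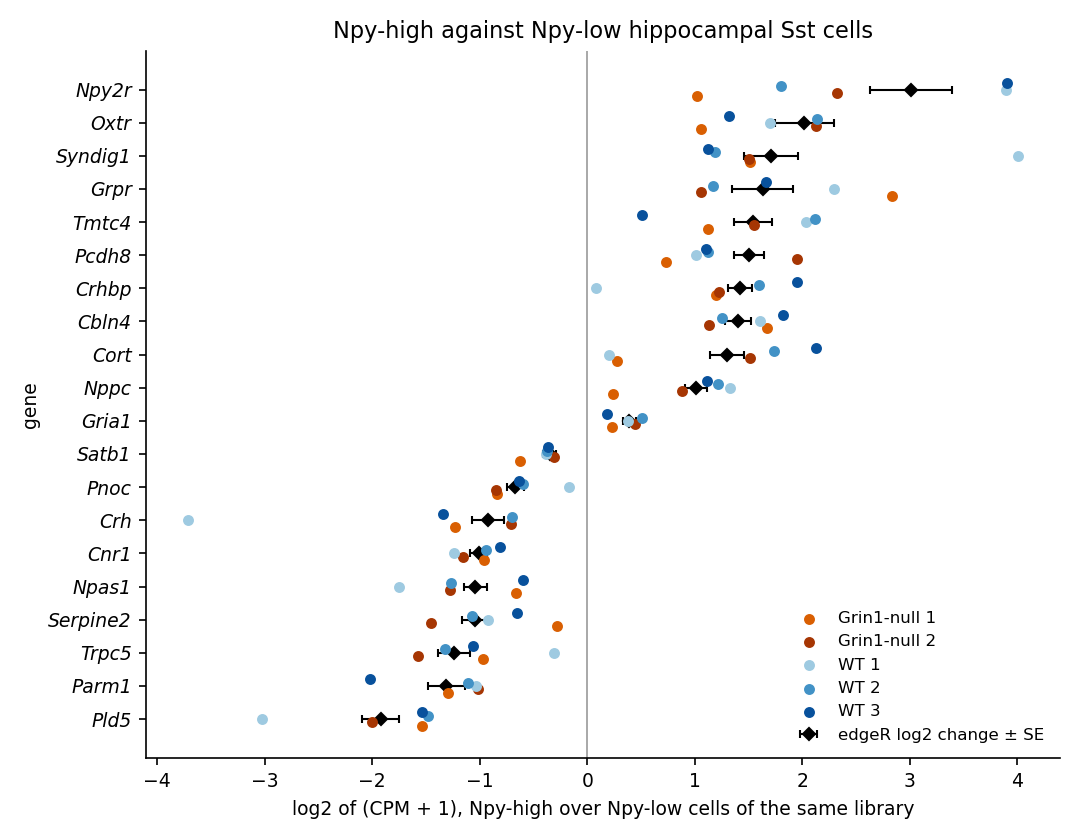
Log2 ratio of CPM plus 1 in Npy-high over Npy-low cells of the same hippocampal library (x axis) for 20 named genes (y axis), with 1 coloured point per library and edgeR's log2 change with its SE as a black diamond. By edgeR's value Npy2r lies farthest to the right and Pld5 farthest to the left, and Syndig1 and Crh each have WT replicate 1 far from the other libraries.

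Gene groups that report on activity, stress and GABA release showed no passing member. Among 12 activity-regulated genes, 9 heat-shock genes and 6 genes of GABA synthesis and transport tested, 0 passed edgeR's test. In the same order, 4, 2 and 0 had an unadjusted p under 0.05, against 12.7% of all genes, all of them lower in Npy-high cells, and DESeq2 called 0. Jun, an immediate early gene, stood at 67.5, 198.4, 39.1, 433.9 and 90.7 CPM in Npy-high and 87.0, 285.9, 82.9, 498.8 and 98.7 CPM in Npy-low cells. Each library had less Jun in Npy-high cells, and the gene did not pass (log2 change -0.36, adjusted p = 0.0165 by edgeR).

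RNA of other cell types was followed in the same sums. The 10 oligodendrocyte markers summed to 302.4, 464.1, 547.2, 654.7 and 409.8 CPM in Npy-high cells and 236.8, 265.5, 429.0, 1123.0 and 396.2 CPM in Npy-low cells, with Mog at 0 by the rule. The sums were higher in Npy-high cells of all libraries except WT replicate 2, and 0 of the 7 that were tested passed by edgeR, with 2 at an unadjusted p under 0.05 and 0 called by DESeq2. The 7 astrocyte markers summed to 94.5, 105.3, 44.7, 69.7 and 98.7 CPM against 125.7, 176.1, 106.6, 93.7 and 109.9 CPM, lower in Npy-high cells of each library. Of these, 3 were tested and 0 passed by edgeR, all 3 had an unadjusted p under 0.05 and were lower (median log2 change -0.63), and DESeq2 called 0, with an adjusted p of 0.0138 by edgeR for Aldoc, an astrocytic enzyme. The 8 neurogliaform and ivy cell markers summed to 116.1, 174.7, 106.1, 327.4 and 185.5 CPM against 145.0, 190.7, 126.3, 224.0 and 141.5 CPM, in no uniform direction. Glutamatergic, microglial and cholinergic markers summed to at most 8.38 CPM in any library of Npy-high cells, and Slc17a6, Neurod6, Neurod2, Cx3cr1, P2ry12, C1qb, Csf1r, Tmem119, Chat, Slc18a3 and Isl1 had 0 UMIs there. Slc17a7, C1qa and Slc5a7 were the most abundant of these lists. The 6 markers of oligodendrocyte precursors summed to 5.40, 8.45, 5.58, 32.9 and 9.97 CPM, led by Vcan, with Pdgfra and Cspg4 at 0, against 2.42, 7.77, 6.58, 101.7 and 17.8 CPM in Npy-low cells. The part of RNA from other cells in the genes that passed was not tested.

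These calls rested unevenly on the libraries. Of 55 named genes that passed, all that could be tested kept their direction when any library was left out. For the 20 named by size this followed from their choice, which required the same direction in every library. Without Grin1-null replicate 2, which held 327 of the 664 cells, 105 genes passed in place of 193, and 21 of the 55 lost their call (adjusted p from 0.0117 to 0.460), among them Zfpm2, Cnih3, Matn2, Ypel1, Zbtb20, Pvalb, Tac1, Tac2, Gria4 and Nlgn1. Igfbp5 and Kcnip1 also lost it there, with log2 changes that went from -0.77 to -0.45 and from 0.74 to 0.47. Without WT replicate 3, 105 genes passed and 13 of the 55 lost their call (adjusted p from 0.0112 to 0.114), among them Cnih3, Myh8, Ypel1, Crh, Gria3 and Neto1. Without Grin1-null replicate 1, S100a10 and Nfix lost it, without WT replicate 1 it was 7 genes (adjusted p from 0.0116 to 0.0422), and without WT replicate 2 it was Kcna1 (adjusted p = 0.0376), all by edgeR. Too few counts for a test were left in 8, 2 and 5 of the 55 without Grin1-null replicate 2, WT replicate 2 and WT replicate 3. With the version 3 libraries alone, an alternative chosen after seeing the data, 171 genes passed. DESeq2 called 61 genes, all among the 193 and 26 of them among the 55, and 22 of 3653 genes passed in cells thinned to 1000 UMIs. Ttr, the transthyretin gene of the choroid plexus, was singled out after its values were seen: its log2 change of 3.66 came from 754.8 CPM in Npy-high cells of WT replicate 3, where 707 of the 759 UMIs of all Npy-high cells (93.1%) lay in 1 cell. Among the 193 genes, Ttr and Pdyn were the 2 with over 20% of their UMIs in 1 cell.

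The cells' peptide genes offer a sequence feature that the rule did not use. The cyclic AMP response element, spelled TGACGTCA, is its own reverse complement and was searched, together with its core TGACG or CGTCA (contained in it), in the 250 bases before the start of each gene in RefSeq promoters of GRCm38.p6. Of 15 peptide genes listed, 11 matched an entry, 1 of which held the full element and 6 the core, against 508 (1.55%) and 5836 (17.8%) of 32851 promoters. Sst and Cort, the pair of related peptides that are both abundant in these cells, are shown with the matching bases in capitals, and the Npy entry held neither form. The Sst stretch lies on the minus strand at chr16:23890874-23890903, with the match 48 to 41 bases before the start, and the Cort stretch on the minus strand at chr4:149126764-149126793, with the match 18 to 14 bases before the start. Starts are those of the RefSeq entries, and for Sst this start lies inside the GENCODE gene given above, so that the Sst stretch is upstream in RefSeq and within the gene in GENCODE.
Sst: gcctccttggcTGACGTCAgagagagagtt
Cort: ctccggcttgtgCGTCAccgcgtgagtgtg
A match is a description of these letters and not a measured binding site.

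The genotype comparison asked which genes of Npy-high cells differed after loss of Grin1. Grin1 itself (ENSMUSG00000026959.9, chromosome 2, 25291181 to 25319187, minus strand) stood at 13.5 and 28.8 CPM in Grin1-null and at 111.7, 184.0 and 156.5 CPM in WT Npy-high cells. Both Grin1-null libraries were far under the 3 WT libraries, which is the direction of the labels. The log2 change was -2.68 (SE 0.40), but with an adjusted p of 0.0885 by edgeR's quasi-likelihood test, Benjamini-Hochberg adjusted it did not pass. DESeq2 called it at an adjusted p of 1.38e-06, and over all alternatives the log2 change ranged from -3.45 to -2.38 and the adjusted p from 1.38e-06 to 1. Which part of Grin1 the floxed allele removes is not given in the sources used here, so how far 3' counts follow the deletion cannot be told. In Npy-low cells Grin1 stood at 26.6 and 12.6 CPM against 129.0, 192.2 and 156.0 CPM, a similar split.

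No gene, Grin1 included, was called by edgeR between genotypes in these cells. Of 10511 genes tested, 0 passed (0% called), 391 (3.72%) had an unadjusted p under 0.05, and DESeq2 called 1, which was Grin1. The groups did not overlap in 1755 genes (16.7%), 964 (9.17%) higher and 791 (7.53%) lower in Grin1-null. With no filter on low counts 12 genes passed. All lists had 0 members that passed, so the values that follow describe the libraries and are not called differences. Satb1 stood at 307.8 and 394.9 CPM in Grin1-null and at 435.5, 441.6 and 547.4 CPM in WT, without overlap (log2 change -0.44, SE 0.26, adjusted p = 0.995 by edgeR). Maf stood at 148.5 and 221.4 CPM against 175.9, 714.8 and 243.3 CPM, where WT replicate 2 was far above the rest. Scg5, the chaperone of the prohormone convertase PC2, stood at 828.8 and 1096.7 CPM against 399.2, 555.9 and 719.9 CPM, without overlap (log2 change 0.78, SE 0.29, adjusted p = 0.995 by edgeR).

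Among ionotropic glutamate receptor genes, 18 were tested, 5 had a log2 change above 0, and the median was -0.32 against -0.03 over all genes, with 2 at an unadjusted p under 0.05 and 1, Grin1, called by DESeq2. Gria1, the most abundant of them, stood at 1036.7 and 875.2 CPM against 991.1, 898.8 and 844.5 CPM, and the groups overlapped. The metabotropic receptors had a median of -0.39 over 10 genes, peptide precursors of -0.10 over 11, fate transcription factors of -0.28 over 22 and synaptic organizers of -0.16 over 28. Granins and peptide processing genes had a median of 0.10 over 14 and activity-regulated genes of 0.11 over 17. Over the 19 lists with a tested gene, 13 of 225 list entries had an unadjusted p under 0.05, against 3.72% of all genes. The oligodendrocyte markers summed to 302.4 and 464.1 CPM in Grin1-null and 547.2, 654.7 and 409.8 CPM in WT Npy-high cells, which overlap. The astrocyte marker Aldoc stood at 54.0 and 53.6 CPM against 5.58, 13.6 and 28.9 CPM, without overlap, and did not pass (log2 change 1.54, SE 0.44, adjusted p = 0.995 by edgeR). The part of other cells' RNA was not tested.

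Whether the difference between Npy-high and Npy-low cells depended on genotype was tested as an interaction, chosen after seeing the data. Of 8852 genes, 1 passed and 311 had an unadjusted p under 0.05. The gene was Bcas1, which is active in newly formed oligodendrocytes. It stood at 0, 9.68, 0, 5.81 and 8.97 CPM in Npy-high and at 0, 2.59, 1.32, 106.4 and 26.3 CPM in Npy-low cells. The value of 106.4 CPM in Npy-low cells of WT replicate 2 stood far above all others, in the library where the oligodendrocyte markers also had their highest sum, 1123.0 CPM (difference of log2 changes 4.57, adjusted p = 0.000845 by edgeR with Benjamini-Hochberg adjustment). In Npy-high cells 31 of its 59 UMIs lay in 1 cell of Grin1-null replicate 2.

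WT Npy-high cells of hippocampus were finally set against those of cortex, to ask what marks the hippocampal form of a cell chosen by the same rule. This comparison shares its hippocampal WT libraries with the genotype comparison. In order of replicates 1 to 3, cortical Npy-high cells had median depths of 8909.0, 5351.0 and 9412.5 UMIs against 5197, 2688 and 12173.5 in hippocampus. Of 10511 genes tested, 13 (0.124%) passed edgeR's quasi-likelihood test, 11 (0.105%) higher and 2 (0.0190%) lower in hippocampus, while 746 (7.10%) had an unadjusted p under 0.05. Groups did not overlap in 1243 genes (11.8%), 619 (5.89%) higher and 624 (5.94%) lower in hippocampus. This main fit did not pair the same-numbered libraries of the regions. With the replicate as a block, 22 genes passed, and DESeq2, without that block, called 68.

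Of the 13 genes, Qrfpr, Npffr1 and Npy2r encode receptors of peptides. Qrfpr, the receptor of the peptide QRFP (chromosome 3, 36179424 to 36222313, minus strand), stood at 36.3, 13.6 and 31.9 CPM in hippocampus and at 0, 0 and 0.651 CPM in cortex. It was nearly absent from the cortical cells, with 4 UMIs in 1247 cells (log2 change 5.98, SE 0.63, adjusted p = 0.000416 by edgeR with Benjamini-Hochberg adjustment). Npffr1, a receptor of neuropeptide FF (chromosome 10, 61595492 to 61628565, plus strand), stood at 33.5, 19.4 and 23.9 CPM against 0.554, 0.795 and 1.14 CPM. The regions did not overlap (log2 change 4.64, SE 0.47, adjusted p = 0.000377 by edgeR). Npy2r stood at 33.5, 13.6 and 14.0 CPM against 1.11, 1.59 and 1.79 CPM. It was higher in each hippocampal library (log2 change 3.50, SE 0.51, adjusted p = 0.00767 by edgeR), and it was the 1 that passed of 7 tested members of the peptide receptor list, which leaves out Qrfpr and Npffr1. Its call was lost in 5 of the 6 fits without a library, where the adjusted p reached 0.0618 by edgeR and the log2 change stayed between 3.06 and 3.76.

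Tenm2, a teneurin that bridges synaptic membranes (chromosome 11, 36006656 to 37235964, minus strand), stood at 270.8, 209.2 and 212.4 CPM in hippocampus and at 24.9, 37.4 and 34.7 CPM in cortex. Each hippocampal library exceeded every cortical one several times over (log2 change 2.80, SE 0.27, adjusted p = 0.000377 by edgeR with Benjamini-Hochberg adjustment). Nrp2, a receptor of class 3 semaphorins (chromosome 1, 62703285 to 62818695, plus strand), stood at 81.0, 62.0 and 31.9 CPM against 3.32, 7.95 and 7.81 CPM, without overlap (log2 change 3.04, adjusted p = 0.00462 by edgeR). Pvrl3, the adhesion protein nectin-3, had a log2 change of 2.95. Sema3e, a class 3 semaphorin (chromosome 5, 14025276 to 14256689, plus strand), stood at 8.38, 5.81 and 6.98 CPM against 53.7, 52.1 and 45.1 CPM. Its regions were far apart with tight replicates (log2 change -2.87, SE 0.42, adjusted p = 0.00780 by edgeR). Sfrp2, a secreted Wnt modulator (chromosome 3, 83766321 to 83774316, plus strand), stood at 0, 1.94 and 2.99 CPM against 40.4, 61.2 and 56.3 CPM. It had 4 UMIs in the 309 hippocampal WT cells (log2 change -4.64, SE 0.52, adjusted p = 0.000526 by edgeR).

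Aga, the lysosomal enzyme aspartylglucosaminidase (chromosome 8, 53511727 to 53523421, plus strand), stood at 265.2, 93 and 65.8 CPM in hippocampus and at 4.43, 5.17 and 5.53 CPM in cortex. All hippocampal libraries were high and replicate 1 was the highest (log2 change 4.69, SE 0.52, adjusted p = 0.000526 by edgeR with Benjamini-Hochberg adjustment). Ctsc, the lysosomal protease cathepsin C, stood at 27.9, 21.3 and 15 CPM against 0.554, 0.398 and 0.651 CPM (adjusted p = 0.000377 by edgeR). Its regions were far apart. Igfbp4, a binding protein of insulin-like growth factors, had a log2 change of 2.24. Sp9, a transcription factor of ganglionic eminence interneurons (chromosome 2, 73271925 to 73284706, plus strand), stood at 61.4, 60 and 79.8 CPM against 11.1, 13.5 and 10.4 CPM. It was high in each hippocampal library (log2 change 2.53, SE 0.33, adjusted p = 0.00272 by edgeR), and of 22 fate transcription factors tested it was the 1 that passed. The gene without a proper name among the 13 was Gm11549, chosen after its values were seen.

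**Figure D4:**
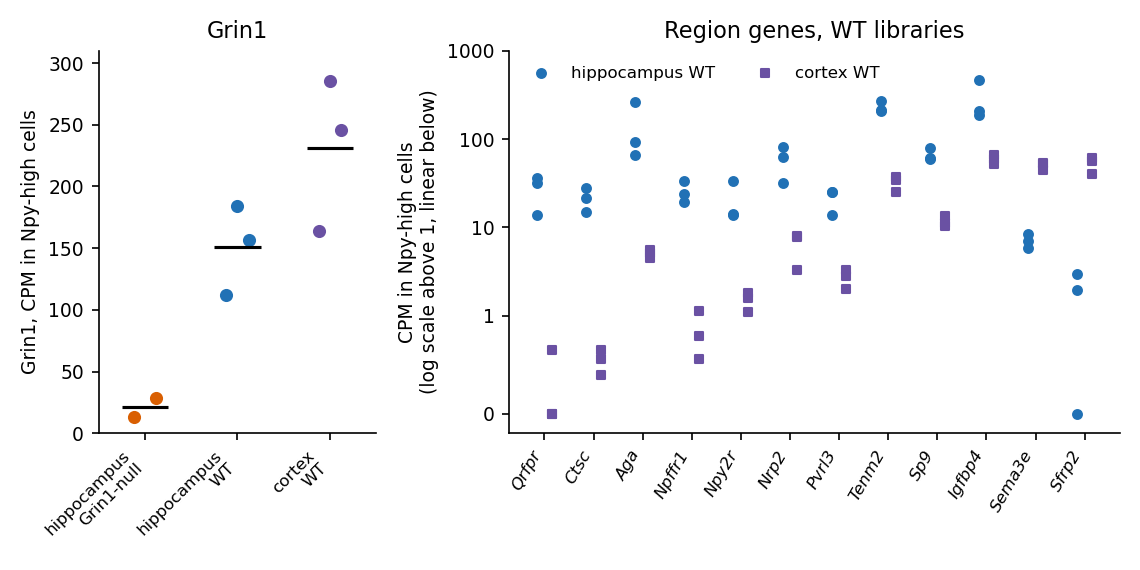
Left, Grin1 CPM (y axis) in Npy-high cells of each library (points) of 3 groups, with group means as lines; the Grin1-null libraries lie at 13.5 and 28.8 CPM and the WT hippocampal libraries between 111.7 and 184.0 CPM. Right, CPM on a log scale above 1 and linear below (y axis) of 12 genes (x axis) in Npy-high cells of WT hippocampus (circles) and WT cortex (squares), in which the regions do not overlap.

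In the 16 lists without a call by edgeR between regions, 55 of 168 list entries had an unadjusted p under 0.05, against 7.10% of all genes, and DESeq2 called 12. Peptide precursors had a median log2 change of -0.09 over 11 tested genes and 0 that passed by edgeR, with 6 at an unadjusted p under 0.05 and 1 called by DESeq2. Tac1 stood at 217.8, 114.3 and 426.8 CPM in hippocampus against 28.8, 93.8 and 73.3 CPM in cortex, and Calb2, calretinin, at 36.3, 110.4 and 80.8 CPM against 253.1, 454.9 and 665.3 CPM. In both genes the regions did not overlap, and neither passed (adjusted p = 0.105 and 0.124 by edgeR), while DESeq2 called Tac1 (adjusted p = 0.00209). Npy and Sst, used by the rule, and Calb1 are given without a test. Calb1 averaged 477.9 ± 107.9 CPM in hippocampus and 872.4 ± 160.5 CPM in cortex, and Npy 4446.8 ± 981.3 and 5991.6 ± 513.0 CPM (SD, n = 3).

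RNA of other cell types was followed between the regions too. The 10 oligodendrocyte markers summed to 547.2, 654.7 and 409.8 CPM in hippocampal and 218.8, 91.8 and 183.6 CPM in cortical Npy-high cells, with Mog at 0 by the rule. All 7 that were tested had a log2 change above 0 (median 1.75 against 0.01 over all genes), and 0 of them passed by edgeR, with 7 at an unadjusted p under 0.05 and 2 called by DESeq2. The 8 neurogliaform and ivy cell markers summed to 106.1, 327.4 and 185.5 CPM in hippocampus and 60.9, 93 and 106.0 CPM in cortex. Hapln1 led in hippocampus and Gabrd in cortex. Of 7 tested, 5 had a log2 change above 0 (median 2.07). By edgeR 0 passed, with 5 at an unadjusted p under 0.05, and DESeq2 called 2. Astrocyte markers summed to 44.7, 69.7 and 98.7 CPM against 41.5, 36.2 and 37.4 CPM (0 of 3 tested passed by edgeR, 2 at an unadjusted p under 0.05, 1 by DESeq2). That 1 was Aldoc, with a log2 change of 2.75 and adjusted p-values of 0.0220 by edgeR and 0.00102 by DESeq2. Without hippocampal WT replicate 1, Aldoc and Hapln1 each passed by edgeR (adjusted p = 0.00685, log2 changes 3.05 and 3.25). Neither passed when any other library was left out. The part of these cells' RNA in the region genes was not tested.

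The region calls changed with the libraries that were included. All 12 named genes kept their direction whichever library was left out. This followed from their naming, which required regions without overlap, and is no measure of stability. Qrfpr, Ctsc, Npffr1, Tenm2 and Sfrp2 kept their call each time. Sema3e lost it each time (adjusted p from 0.0176 to 0.0656 by edgeR) with log2 changes that stayed between -2.95 and -2.79. Of the 6 fits, Npy2r, Pvrl3 and Igfbp4 lost their call in 5, Nrp2 and Sp9 in 4 and Aga in 1. Their adjusted p-values were at most 0.0743 by edgeR. Log2 changes moved little for Pvrl3 (from 2.76 to 3.16) and Sp9 (from 2.36 to 2.62). They moved more for Qrfpr (from 5.61 to 8.44), Sfrp2 (from -5.48 to -4.33), Aga (from 3.90 to 5.05) and Igfbp4 (from 1.73 to 2.44). The count was 20 without hippocampal WT replicate 2 and 6, 7 and 5 without cortex WT replicates 1, 2 and 3. With the version 3 libraries alone, 2 per region and an alternative chosen after seeing the data, 0 genes passed by edgeR, 578 had an unadjusted p under 0.05, DESeq2 was not run on them, and the 12 named genes had adjusted p-values from 0.0325 to 0.140. Their direction there again followed from the naming. Their log2 changes kept much of their size, among them 4.82 for Ctsc, 2.54 for Tenm2, 2.58 for Sp9, -2.89 for Sema3e and, with a larger step, 3.84 for Aga.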

How the data were processed

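The counts are those deposited by the authors, 1 matrix of UMIs for each region and genotype, and reads were not realigned. The submitters' processing notes credit Cell Ranger 2.1.1 and mm10 with gene ends extended by 4 kb, while the matrix header names 3.0.2. Libraries were assigned by barcode suffix, whose cell numbers equal the cell estimates in the methods. UMIs were summed over the cells of a class in each library and tested with edgeR 4.0.16 (quasi-likelihood, TMM scaling, low-count filter, Benjamini-Hochberg) and DESeq2 1.42.0 in R 4.3.3, with Python 3.11.15 and scanpy 1.11.5. The code was tested on simulated data. Genes were named by list, and by the 10 largest changes per direction among passing genes with at least 20 CPM in the higher class or group, the same direction in every library (Npy-high against Npy-low) or no overlap (other comparisons), leaving out sex genes and genes without a name. Members and lists were chosen with earlier results of these data known. To look for pairing, each library's deviations from its group mean in log2 CPM of Npy-high cells were correlated, not the levels themselves. Same-numbered hippocampal and cortical WT libraries had r of 0.504, 0.523 and 0.288 over 10517 genes. Those with different numbers had r from -0.52 to 0.149.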

Additional observations from a re-analysis of the deposited data

Results flagged for a closer look

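In 80 groups of 5 libraries, each holding the log2 ratio of Npy-high over Npy-low cells of a named gene, 9 held a value that Dixon's test set apart from the other libraries. About 1 in 20 such groups would be set apart by chance. Syndig1 was 4.26 in WT replicate 1, with the others from 1.21 to 1.58, and rests on 1 UMI in Npy-low cells. Parm1 was -2.04 in WT replicate 3, with the others from -1.27 to -1.01. Crh was -3.56 in WT replicate 1, with the others from -1.36 to -0.69, and rests on 1 UMI in Npy-high cells. Pvalb was -4.27 in WT replicate 1, with the others from 0.82 to 1.85; Npy-high cells of that library had 0 Pvalb UMIs, so the value rests on the constant added before the log. Adcyap1r1 was 0.43 in WT replicate 3, with the others from -0.12 to 0.00. Necab2 was 1.22 in WT replicate 2, with the others from -1.21 to -0.55. Satb1 was -0.62 in Grin1-null replicate 1, with the others from -0.38 to -0.31. Lrrtm1 was -0.17 in Grin1-null replicate 1, with the others from -1.15 to -0.94. Aldoc was -3.00 in WT replicate 1, with the others from -0.56 to -0.54.

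Bcas1 was set apart by the interaction test, in which its log2 change between Npy-high and Npy-low cells differed by 4.57 between the genotypes.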

How the results depend on the processing

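The Npy-high share in Grin1-null minus WT hippocampus was 5.01 to 23.1 points over the alternatives, 8.99 to 23.1 with a library left out, with exact permutation p from 0.1 to 0.6. Hippocampus minus cortex was -17.1 to -10.5 points, -17.1 to -12.8 with a library left out, with exact permutation p from 0.1 to 0.333. Both kept their direction. With so few libraries no alternative could reach p under 0.05, so this is no measure of stability: the genotype difference was 5.01 points after thinning and 6.37 with the limit at 500 Npy CPM, and the groups overlapped in each.

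The count of 193 genes between Npy-high and Npy-low cells moved to 333 at an adjusted p under 0.05, 61 with DESeq2, 305 with no filter on low counts, 22 after thinning to 1000 UMIs, and 0 with no replicate block. With a library left out it was 105 to 192, moved at 105 without Grin1-null replicate 2 and without WT replicate 3.

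Between genotypes the count of 0 moved to 1 with DESeq2 and 12 with no filter on low counts, and stayed 0 with a library left out. With the replicate as a block it stayed 0, where Grin1 had an adjusted p of 0.0223 by edgeR. Deviations from the group mean had r of 0.189 and 0.155 between Grin1-null and WT libraries of the same number. Those with different numbers had r from -0.189 to 0.0536. With 2 Grin1-null libraries the deviations mirror each other, so these values are not independent. Grin1 passed with DESeq2 and is labelled stronger there for its adjusted p of 1.38e-06, not for its size, which was -2.70 against -2.68; with a library left out it was -3.45 to -2.41.

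Between regions the count of 13 moved to 59 at an adjusted p under 0.05, 68 with DESeq2, 142 with no filter on low counts, 0 after thinning, 22 with the replicate as a block, 8 with only the libraries of the 2 groups, and 0 with the version 3 libraries alone, an alternative chosen after seeing the data. With a library left out it was 5 to 20, moved at 20 without hippocampal WT replicate 2 and at 6, 7 and 5 without cortex WT replicates 1, 2 and 3. No result was reversed, and the cause of these moves was not tested.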
